A study of Homo sapiens with 8 samples.

Results

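The genes of glucose breakdown and of the transcriptional response to low oxygen, 39 in all, were followed in human dopaminergic neurons. They were chosen by symbol from a table of 58395 genes and comprise the enzymes and transporters of glycolysis with lactate production, the hypoxia-inducible factor (HIF) subunits HIF1A and EPAS1, and genes that HIF is known to induce. The cells were iCell DopaNeurons, a commercial line of dopaminergic neurons made from induced pluripotent stem cells, and both groups used that line. In the GDNF group (4 libraries) neurons grew on coverslips coated with a mimic of GDNF (glial cell line-derived neurotrophic factor) in the form of a nanostructure. The CT group (4 libraries) is read here as the scrambled form of that nanostructure, the only comparator the series names, since the labels do not spell CT out. Neurons of both groups were collected on day 4, after 1 medium change at 24 h, and 10.73 mM is the treatment entry of every sample. The design text speaks of 3 replicates, but 4 numbered ones per group were used here. Separate cultures are not stated for them, so the spread behind each p value may be technical.

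Glycolysis splits glucose into pyruvate in the cytosol, and most of its steps are carried out by families of isoenzymes whose members are used in different tissues. In the mature brain, glia are often described as exporting lactate and neurons as taking it up, and lactate dehydrogenase B, aldolase C and enolase 2 are isoenzymes long associated with nervous tissue. Under low oxygen the HIF alpha subunits escape hydroxylation by the EGLN enzymes and raise the transcription of glucose transporters, glycolytic enzymes, pyruvate dehydrogenase kinase, VEGFA and the mitophagy receptor BNIP3.

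Total counts were 29532090 to 34559240 in GDNF libraries and 28698283 to 31692788 in CT libraries. At these depths 3 counts, the upper limit that a count of 0 allows, correspond to 0.0868 to 0.105 CPM (depth-scaled counts), counting error only. The 39 genes took 0.442 to 0.474% of the counts in GDNF libraries and 0.435 to 0.518% in CT libraries. All 7 neuronal markers and 7 of 8 dopaminergic ones reached 5 CPM, MAP2 averaging 3060 ± 254 CPM in GDNF and 2886 ± 477 CPM in CT libraries and TH 219 ± 40.3 CPM in GDNF and 220 ± 74.7 CPM in CT libraries (SD, n = 4 each). The dopaminergic marker below it was PITX3, with 2.44 ± 0.743 CPM in GDNF and 2.30 ± 0.911 CPM in CT libraries. Of the 6 progenitor markers, 4 reached 5 CPM. VIM averaged 305 ± 44.3 CPM in GDNF and 314 ± 45.6 CPM in CT libraries. NES averaged 183 ± 32.0 CPM in GDNF and 193 ± 29.5 CPM in CT libraries. SOX2 and HES1 averaged 6.28 and 5.14 CPM in GDNF and 7.545 and 5.57 CPM in CT libraries. PAX6 and SOX1, too low to be tested, averaged 0.0862 and 0.291 CPM in GDNF and 0.144 and 0.251 CPM in CT libraries. Of the 7 astrocyte markers, only SLC1A2 reached 5 CPM, and GFAP, the defining one, averaged 0.340 ± 0.163 CPM in GDNF and 0.450 ± 0.172 CPM in CT libraries. The summed astrocyte list ranged from 254 to 321 CPM in GDNF and from 155 to 335 CPM in CT libraries. Nearly all of that sum was SLC1A2, with 250.1 to 316.5 CPM in GDNF and 150.4 to 331.3 CPM in CT libraries. CT replicate 2 differed from all the rest: its correlations with the other 7 libraries were 0.908 to 0.966, against at least 0.979 among the rest, and its genes deviated with their GC content. Since this touches most of the genes described here, fold changes that turn on CT replicate 2 are also given without it. In bulk RNA, fewer cells of a type and less RNA per cell cannot be told apart.

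Every step of glycolysis was represented by mRNA in these neurons, and most isoenzyme families had a clear leader, which held over 75% of the family in 10 of 17 families. Levels of different genes are compared only as CPM per kilobase of exon. On that scale ENO2, the neuronal enolase, was highest of the 39 genes, with 182 ± 13.5 in GDNF and 192 ± 32.9 in CT libraries, and ranked 75 among all listed genes over the 8 libraries. GAPDH, LDHB, ENO1, HK1 and PKM followed with means over 8 libraries of 114, 77.1, 67.8, 62.3 and 53.6 CPM per kilobase. The SDs over the 8 libraries were 23.9 for ENO2, 17.5 for GAPDH, 13.03 for LDHB, 10.2 for ENO1 and 7.31 for HK1. On this scale the means of ENO2, GAPDH and LDHB differed from one another by more than their SDs over libraries. The means of LDHB and ENO1, and of ENO1 and HK1, did not. That spread includes CT replicate 2 and does not compare the genes within each library, so a steady order within libraries may be missed. It also leaves out the choice of length, on which the order of the genes below GAPDH depends. The exon union and longest transcript have 8571 and 3016 bases for PKM, but 2983 and 1538 for LDHB. At the other end by raw counts, CA9, ADM, EPAS1, HK2 and ANGPTL4, genes that are known HIF targets or an alternative HIF subunit, had 0 to 25 in every library. Per kilobase EGLN3, with a mean of 0.181 over 8 libraries, lay just below ANGPTL4, with 0.187.

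**Figure D1:**
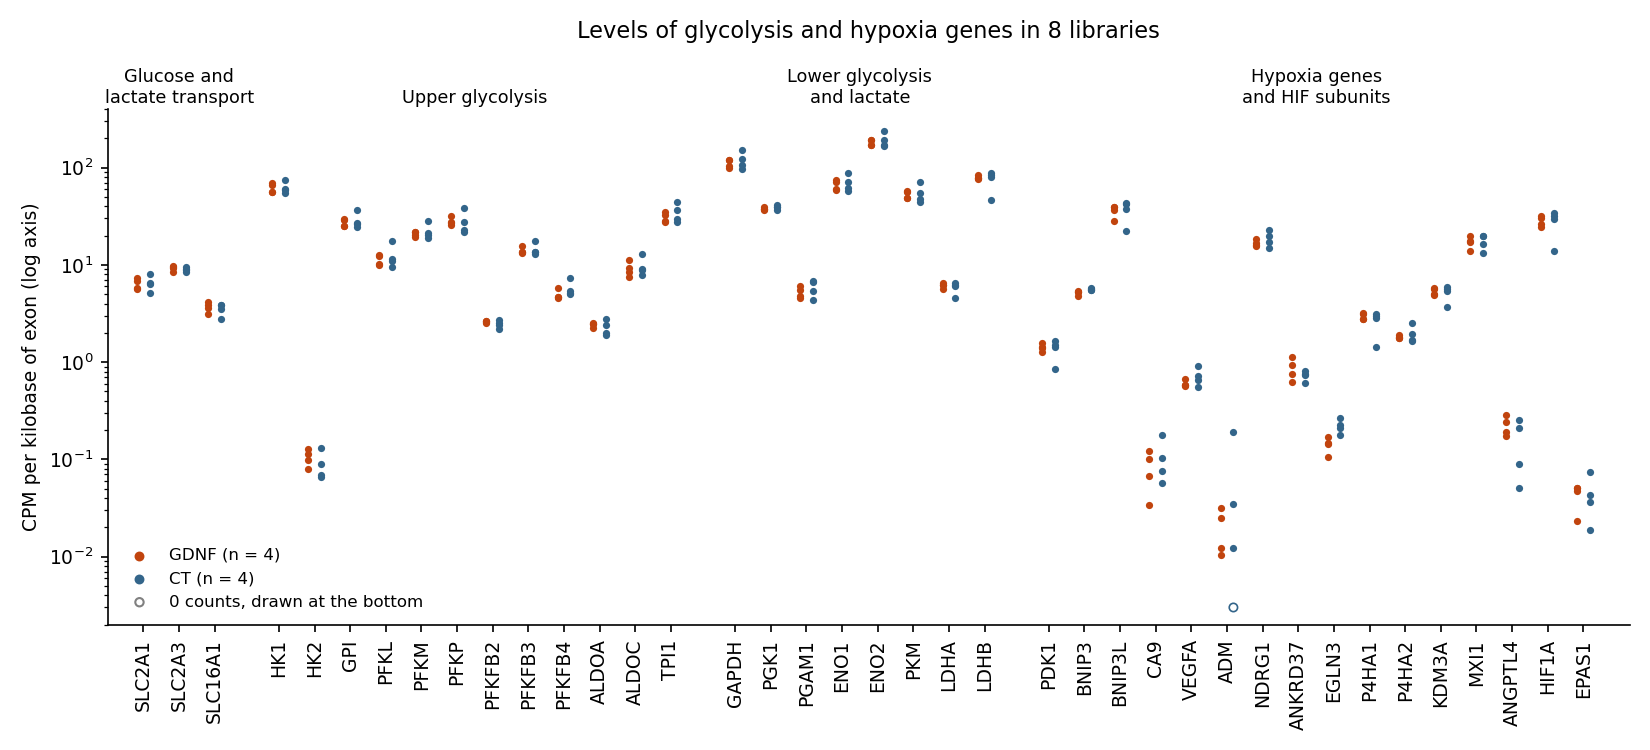
Level of each of the 39 genes in CPM per kilobase of exon (log axis) in the 4 GDNF and 4 CT libraries, 1 point per library, ordered by place in the pathway. ENO2 and GAPDH lie above 90, HK2, CA9 and EPAS1 below 0.2, and the point that sits apart in many CT columns is CT replicate 2.

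Of the glucose transporters, the neuronal and the ubiquitous form were both expressed. SLC2A3, the high-affinity glucose transporter of neurons, had 56.6, 59.0, 60.3 and 52.5 CPM in GDNF replicates 1 to 4, against 54.7, 52.6, 59.1 and 55.5 CPM in CT replicates 1 to 4. SLC2A1, the ubiquitous and HIF-inducible carrier, had 26.6, 27.0, 32.4 and 34.9 CPM in GDNF replicates 1 to 4, against 29.97, 37.7, 30.7 and 24.5 CPM in CT replicates 1 to 4. The groups overlapped for both genes. Per kilobase SLC2A3 made up 59.0 ± 4.03% of the summed glucose transporters in GDNF and 58.2 ± 4.91% in CT libraries, with SLC2A1 next. The ratio of SLC2A3 to SLC2A1 ranged from 1.07 to 1.74, so that the order held in all 8 libraries by a narrow margin. SLC2A2, SLC2A4 and SLC2A14, the liver, muscle and SLC2A3-like transporters, stayed below 0.3 CPM in every library. SLC2A14 is a near copy of SLC2A3, and reads shared by the 2 genes could have been split or dropped.

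Of the hexokinases, which trap glucose in the cell, HK1 was high and HK2 nearly absent. HK1 had 356, 356, 440 and 416 CPM in GDNF replicates 1 to 4, against 372, 472, 382 and 343 CPM in CT replicates 1 to 4. Per kilobase HK1 averaged 62.2 ± 6.78 in GDNF and 62.3 ± 8.87 in CT libraries, and HK2 0.105 ± 0.0204 in GDNF and 0.0881 ± 0.0296 in CT libraries. HK2, the HIF-inducible hexokinase of muscle and tumours, was near the floor, with 17, 24, 18 and 23 counts in GDNF replicates 1 to 4, against 17, 12, 12 and 25 counts in CT replicates 1 to 4. GPI, which turns glucose 6-phosphate into fructose 6-phosphate, averaged 290 ± 25.5 CPM in GDNF and 304 ± 56.5 CPM in CT libraries.

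At the committed step of glycolysis no single isoenzyme dominated. PFKP, the platelet-type phosphofructokinase that is common in brain, had 134, 125, 130 and 152 CPM in GDNF replicates 1 to 4, against 134, 185, 105 and 110 CPM in CT replicates 1 to 4. PFKM, the muscle-type enzyme, had 148, 143, 160 and 158 CPM in GDNF replicates 1 to 4, against 149, 208, 154 and 137 CPM in CT replicates 1 to 4. PFKP led per kilobase in all 8 libraries, with 46.6 ± 1.94% of the family in GDNF and 44.2 ± 2.96% in CT libraries, but only by 1.03 to 1.46 times. PFKM led instead when counts were not divided by length, with 39.7% of the counts against 33.8% for PFKP. PFKL, the liver-type enzyme, averaged 11.2 ± 1.37 CPM per kilobase in GDNF and 12.5 ± 3.63 in CT libraries, the lowest of the family.

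The PFKFB enzymes set the level of fructose 2,6-bisphosphate, the strongest activator of phosphofructokinase. PFKFB3, whose kinase activity far exceeds its phosphatase activity and whose protein is known to be degraded in rodent neurons, had 83.5, 82.6, 81.1 and 95.2 CPM in GDNF replicates 1 to 4, against 82.1, 107, 83.7 and 79.8 CPM in CT replicates 1 to 4. It held 63.0 ± 0.263% of the family in GDNF and 62.0 ± 0.650% in CT libraries. PFKFB4, also HIF-inducible, had 28.2, 27.8, 28.3 and 35.7 CPM in GDNF replicates 1 to 4, against 31.0, 44.3, 32.6 and 31.1 CPM in CT replicates 1 to 4. Within each group a single library stood above the rest for both genes, GDNF replicate 4 and CT replicate 2. PFKFB2 lay between 25.7 and 27.3 CPM in GDNF and between 22.3 and 27.5 CPM in CT libraries.

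By the counts given, the aldolase of these neurons was mainly ALDOC, the brain form. ALDOC had 24.9, 21.9, 27.3 and 33.2 CPM in GDNF replicates 1 to 4, against 26.3, 37.7, 25.7 and 22.9 CPM in CT replicates 1 to 4. ALDOA, the muscle and ubiquitous form, had 8.70, 9.65, 9.90 and 9.75 CPM in GDNF replicates 1 to 4, against 7.49, 9.50, 10.8 and 7.80 CPM in CT replicates 1 to 4. ALDOC held 77.4 ± 2.88% of the family in GDNF and 78.8 ± 4.03% in CT libraries. The level of ALDOA is uncertain, because 42.3% of its exon bases are shared with the overlapping gene AC093512.2 on the same strand, which itself had 91 to 174 counts. With only exon bases that no other gene shares on either strand, ALDOC still led, with 66.1% of the family. That changes the length alone, and does not restore reads that may have been dropped in shared bases. Counts of the 2 pseudogenes named after ALDOA sum to 44.1% of its own. Since reads of ALDOA may have been lost in both ways, the lead of ALDOC remains uncertain, and not only in size.

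From the triose phosphates down to pyruvate, single isoenzymes prevailed except at enolase. TPI1, the triose phosphate isomerase, averaged 83.1 ± 9.43 CPM in GDNF and 93.5 ± 20.5 CPM in CT libraries. GAPDH, which makes the first NADH of the pathway, had 310, 294, 356 and 354 CPM in GDNF replicates 1 to 4, against 314, 448, 362 and 288 CPM in CT replicates 1 to 4. PGK1, the first ATP-yielding enzyme, had 208, 200, 217 and 208 CPM in GDNF replicates 1 to 4, against 215, 219, 227 and 202 CPM in CT replicates 1 to 4. PGK1 had a coefficient of variation of 3.31% in GDNF and 4.73% in CT libraries, while GAPDH was highest in CT replicate 2. GAPDHS and PGK2, the sperm-specific forms of both enzymes, stayed below 0.1 CPM in every library. PGAM1, a phosphoglycerate mutase, had 12.4, 11.8, 14.2 and 15.5 CPM in GDNF replicates 1 to 4, against 11.1, 17.4, 17.1 and 13.8 CPM in CT replicates 1 to 4, and its next relative PGAM4 stayed below 0.07 CPM. For GAPDH, 62 pseudogenes named after it are annotated, and their summed counts reached 47% of those of the gene itself, so reads may have been divided among these copies. For TPI1 the corresponding value was 33.9% and for PGAM1 8.78%.

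Enolase was mainly the neuronal form. ENO2 (chromosome 12, 6913745 to 6923698, GRCh38) had 726, 733, 830 and 829 CPM in GDNF replicates 1 to 4, against 717, 1020, 828 and 726 CPM in CT replicates 1 to 4. ENO1, the ubiquitous enolase, had 321, 313, 392 and 378 CPM in GDNF replicates 1 to 4, against 323, 462, 372 and 301 CPM in CT replicates 1 to 4. Both enolases were highest in CT replicate 2 and kept their ratio: per kilobase ENO2 exceeded ENO1 by 2.61 to 2.97 times in the 8 libraries. ENO2 held 72.9 ± 0.786% of the family in GDNF and 73.2 ± 0.740% in CT libraries, the rest being nearly all ENO1. PKM, the pyruvate kinase of most tissues, had 417, 413, 484 and 493 CPM in GDNF replicates 1 to 4, against 412, 604, 472 and 382 CPM in CT replicates 1 to 4. PKLR, the liver and red cell enzyme, stayed below 0.5 CPM. Counts per gene do not separate the 2 PKM splice forms of brain and of growing cells.

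Lactate dehydrogenase was overwhelmingly of the B type, whose tetramer is known to favour the use of lactate, while the A type is known to favour its formation. LDHB (chromosome 12, 21635342 to 21757857) had 250.5, 232, 233 and 230 CPM in GDNF replicates 1 to 4, against 253, 138, 261 and 241 CPM in CT replicates 1 to 4. LDHA (chromosome 11, 18394388 to 18408425) had 38.9, 35.0, 40.1 and 38.7 CPM in GDNF replicates 1 to 4, against 38.5, 28.6, 40.9 and 37.4 CPM in CT replicates 1 to 4. Both genes were lowest in CT replicate 2 and overlapped between the groups. Per kilobase LDHB was 10.03 to 13.8 times LDHA and held 92.5 ± 0.294% of the family in GDNF and 92.3 ± 1.03% in CT libraries. Under every other length and pseudogene treatment LDHB still held at least 85.7%, and the counts of pseudogenes named after LDHA sum to 18.9% of its own. SLC16A1, which carries lactate and pyruvate across the membrane, had 19.3, 20.5, 22.1 and 16.6 CPM in GDNF replicates 1 to 4, against 20.4, 14.9, 18.8 and 20.8 CPM in CT replicates 1 to 4. It made up 71.2% of the 4 monocarboxylate transporters in GDNF and 72.5% in CT libraries on the per-kilobase scale. SLC16A8, next by mean share per kilobase, had the lowest mean CPM of the 4. It had 1.45, 1.66, 0.839 and 2.09 CPM in GDNF replicates 1 to 4, against 1.20, 2.39, 0.311 and 1.10 CPM in CT replicates 1 to 4. Its place depends on length, with an exon union of 2203 bases against 8995 for SLC16A3 and 13665 for SLC16A7. Nor was it next in every library: in CT replicate 3 it held 3.23%, below SLC16A3 with 8.69% and SLC16A7 with 7.05%. SLC16A7, the carrier usually assigned to neurons, ranged from 3.24 to 7.91 CPM in GDNF and from 2.43 to 7.21 CPM in CT libraries.

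The windows before the first listed RefSeq start of the enolase and lactate dehydrogenase pairs differed in their HIF cores. HIF binds the core ACGTG or GCGTG, and both were searched on both strands in the 250 bases before each RefSeq start (GRCh38.p14), a palindromic CACGTG counting on both strands. The lines that follow give 30 bases of the LDHA and ENO2 windows around ACGTG cores, 30 bases of the ENO1 window around a GCGTG core, and the part of the LDHB window that lies outside annotated exons. The LDHA, ENO2 and ENO1 stretches lie within exons of GENCODE 29, which cover 175 bases of the LDHA window and all 250 of each enolase window. Capitals mark the cores and their reverse complements.
LDHA, chr11:18394470-18394499, + strand: gactcaCACGTGggttcccgCACGTccgcc
LDHB, chr12:21657972-21658092, - strand: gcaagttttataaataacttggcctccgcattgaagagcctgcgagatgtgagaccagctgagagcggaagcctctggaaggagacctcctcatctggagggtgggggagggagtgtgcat
ENO2, chr12:6914449-6914478, + strand: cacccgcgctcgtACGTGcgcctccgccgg
ENO1, chr1:8878742-8878771, - strand: cggagctgaggggGCGTGccccggaggcgg
The first LDHA window held 5 matches to ACGTG and none to GCGTG, its second window no ACGTG and 1 GCGTG, and the LDHB window none of either. The ENO2 window held 1 ACGTG and the ENO1 window 2 GCGTG. Among these 4, LDHA had the most ACGTG cores and the lowest level per kilobase. Of the 39 genes, 33 had at least 1 window, 59 windows in all, and 37.3% of these windows held ACGTG, against 18.5% of all 35116 RefSeq windows and 20.2% of the windows of protein-coding genes. For GCGTG the shares were 33.9% of the windows of these genes, 32.2% of all windows and 38.3% of the protein-coding ones. Median GC content was 68.4% in the windows of these genes, 58.0% in all windows and 62.0% in the protein-coding ones. Several of these genes add more than 1 window, and some were chosen as known HIF targets. The difference in ACGTG was not tested. The genes shown were picked after their levels were known, and a match is a description of the letters, not a binding site.

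Pyruvate dehydrogenase kinases hold back the entry of pyruvate into the citric acid cycle. PDK1, the HIF-inducible kinase, had 20.8, 21.5, 23.6 and 18.9 CPM in GDNF replicates 1 to 4, against 24.5, 12.7, 21.4 and 22.6 CPM in CT replicates 1 to 4. PDK2, the widely expressed kinase, had 24.1, 23.3, 28.6 and 26.96 CPM in GDNF replicates 1 to 4, against 22.01, 33.96, 28.9 and 27.1 CPM in CT replicates 1 to 4. In CT replicate 2 the 2 kinases lay at opposite ends of their group, PDK1 lowest and PDK2 highest. Per kilobase PDK2 led in all 8 libraries, with 63.2 ± 2.002% of the family in GDNF and 65.2 ± 8.80% in CT libraries.

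**Figure D2:**
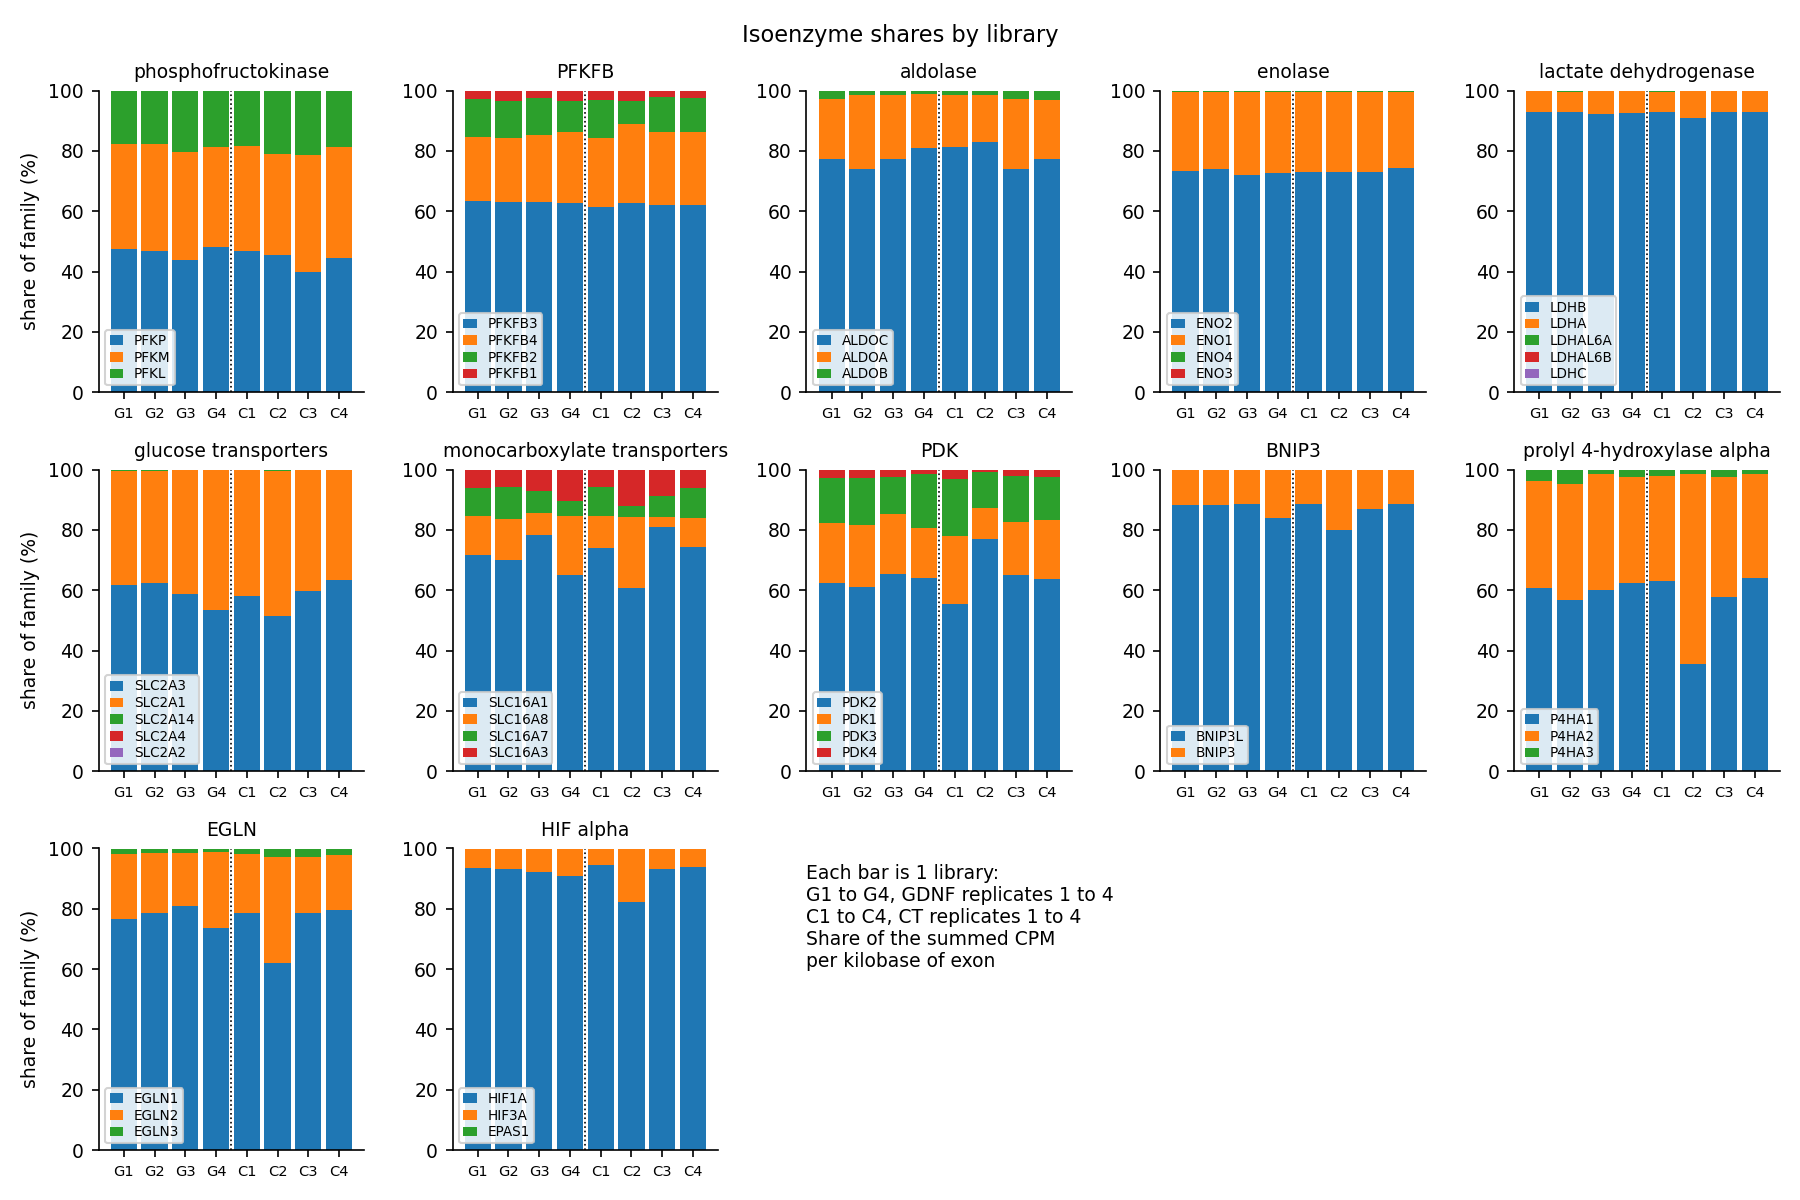
Share of each isoenzyme in the summed CPM per kilobase of its family, in percent, 1 bar per library (G1 to G4, GDNF replicates 1 to 4, C1 to C4, CT replicates 1 to 4) in 12 families. LDHB fills more than 90% of its bar in every library, phosphofructokinase is divided, and P4HA1 leads in every library except CT replicate 2, where it held 35.6%.

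Over 17 families, the same isoenzyme led in all 8 libraries in 16, and the leader held over 95% of its family in 5, over 75% in 10 and over 50% in 16. The exception was prolyl 4-hydroxylase alpha, described with the hypoxia genes. The 10 families led by over 75% include aldolase and EGLN, whose shares are uncertain because reads may have been dropped. In 15 of the 17 families the leader was one of the 39 genes, the others being PDK2 and EGLN1. Between the groups, only the share of the leading isoenzyme of each family was tested, and 0 of 17 passed. Among these leading shares the smallest exact two-sided permutation p was 0.0571, for PFKFB3 (adjusted p = 0.971 over 17 families). With 4 libraries against 4 no exact p can fall below 0.0286. After adjustment over 17 families a single share at that floor could not have passed, so the test cannot show that shares were equal.

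Of the HIF alpha subunits, HIF1A was by far the main one on both coatings. HIF1A (chromosome 14, 61695513 to 61748259), whose protein is stabilised under low oxygen, had 164, 156, 136 and 128 CPM in GDNF replicates 1 to 4, against 162, 71.4, 153 and 176 CPM in CT replicates 1 to 4. The log2 fold change of HIF1A was 0.05 (95% interval -0.47 to 0.58), and -0.16 without CT replicate 2, in which HIF1A was lowest. EPAS1, the HIF2 alpha subunit known from endothelium and glia, was barely detected, with 6, 12, 11 and 11 counts in GDNF replicates 1 to 4, against 17, 8, 4 and 10 counts in CT replicates 1 to 4. HIF3A, a subunit known mostly as a brake on HIF, had 18.4, 17.96, 18.3 and 20.7 CPM in GDNF replicates 1 to 4, against 15.02, 24.5, 17.5 and 17.9 CPM in CT replicates 1 to 4. HIF1A made up 92.4 ± 1.25% of the HIF alpha family in GDNF and 91.0 ± 5.78% in CT libraries. HIF activity is set by protein stability, and mRNA levels do not measure it.

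Among the EGLN oxygen sensors, EGLN1 was the leading form and EGLN3 the rarest. EGLN1 had 54.1, 51.4, 60.3 and 45.9 CPM in GDNF replicates 1 to 4, against 55.4, 35.0, 54.8 and 55.7 CPM in CT replicates 1 to 4. EGLN2 had 13.9, 11.7, 11.99 and 14.2 CPM in GDNF replicates 1 to 4, against 12.4, 17.9, 11.6 and 11.6 CPM in CT replicates 1 to 4. EGLN1 held 77.4 ± 3.07% of the family in GDNF and 74.8 ± 8.51% in CT libraries. These shares are uncertain, because only 4565 of the 6577 exon bases of EGLN2 are free of other genes on its strand. Reads in the shared part could have been dropped. EGLN3, the smallest part, held 1.75, 1.60, 1.42 and 1.23% in GDNF replicates 1 to 4, against 1.82, 2.90, 2.79 and 2.18% in CT replicates 1 to 4. As for its CPM, the groups did not overlap, and this share was not tested.

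EGLN3 (chromosome 14, 33924231 to 34462774), itself induced by HIF, was the gene of the 39 with the smallest p. It had 1.25, 1.06, 1.07 and 0.776 CPM in GDNF replicates 1 to 4, against 1.30, 1.66, 1.97 and 1.54 CPM in CT replicates 1 to 4. All 4 GDNF libraries lay below all 4 CT libraries, although GDNF replicate 1 and CT replicate 1 were nearly equal. The means were 1.04 ± 0.198 CPM in GDNF and 1.62 ± 0.279 CPM in CT libraries (n = 4 each), from 23 to 57 counts per library. The log2 fold change was -0.63 (95% interval -1.14 to -0.12, unadjusted p = 0.0196, adjusted p = 0.9999 over all genes, edgeR quasi-likelihood test), so EGLN3 did not pass. It was -0.61 without CT replicate 2. With limma-voom the log2 fold change was -0.41 (unadjusted p of 0.0628). In edgeR it was -0.51 without GDNF replicate 4 (unadjusted p of 0.0630) and -0.52 without CT replicate 3 (unadjusted p of 0.0604), so the p stayed under 0.05 in none of these 3 settings. An unadjusted p below 0.05 was found for 0.88% of all tested genes, and 1 of the 37 tested members, EGLN3, reached it.

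BNIP3, which marks mitochondria for removal, was the other gene whose groups did not overlap. BNIP3 had 28.2, 28.3, 25.8 and 28.7 CPM in GDNF replicates 1 to 4, against 29.4, 29.7, 30.6 and 29.8 CPM in CT replicates 1 to 4. The groups were 27.7 ± 1.34 CPM in GDNF and 29.9 ± 0.512 CPM in CT libraries, a log2 fold change of -0.11 (95% interval -0.35 to 0.14, unadjusted p = 0.352, edgeR). Non-overlapping libraries were found for 0.93% of all tested genes in either direction and for 0.625% with GDNF lower, and for 2 of the 37 members, EGLN3 and BNIP3, both lower. Counts of the 39 processed pseudogenes named after BNIP3 sum to 26.4% of its own, so its level is uncertain. Its relative BNIP3L had 169, 170, 160 and 122 CPM in GDNF replicates 1 to 4, against 182, 95.8, 163 and 186 CPM in CT replicates 1 to 4. BNIP3L was the main form, with 87.2 ± 2.09% of the pair in GDNF and 85.9 ± 4.07% in CT libraries per kilobase.

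The window before the RefSeq start of these 2 genes, shown because they are the ones whose libraries did not overlap, differs in its HIF cores. The parts of the windows outside annotated exons are given, with cores in capitals.
BNIP3, chr10:131982014-131982173, - strand: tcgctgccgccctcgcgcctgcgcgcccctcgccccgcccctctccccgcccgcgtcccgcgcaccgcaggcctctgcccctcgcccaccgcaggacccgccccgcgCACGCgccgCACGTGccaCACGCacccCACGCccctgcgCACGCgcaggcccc
EGLN3, chr14:33951082-33951324, - strand: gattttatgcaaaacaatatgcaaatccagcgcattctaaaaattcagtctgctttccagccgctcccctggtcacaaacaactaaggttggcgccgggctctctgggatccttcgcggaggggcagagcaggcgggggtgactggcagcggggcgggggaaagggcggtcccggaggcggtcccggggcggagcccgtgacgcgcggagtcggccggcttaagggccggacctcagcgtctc
The BNIP3 window held 2 matches to ACGTG and 4 to GCGTG, and the EGLN3 window none to either.

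**Figure D3:**
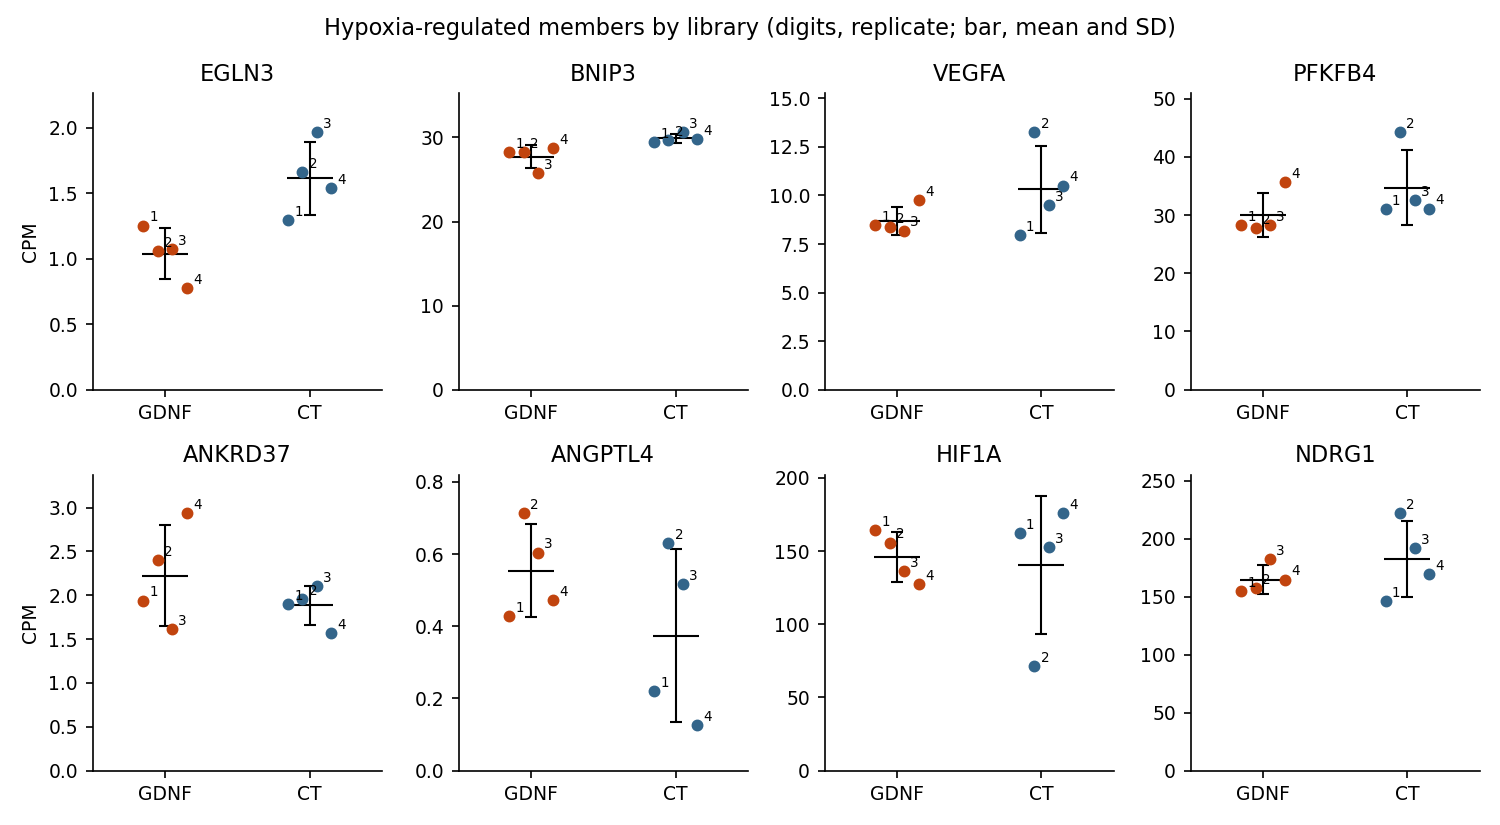
CPM of 8 hypoxia-regulated genes in the GDNF and CT libraries, with digits for the replicate and bars for the mean and SD of 4 libraries. EGLN3 and BNIP3 are the panels in which the groups do not overlap, and CT replicate 2 is the highest library for VEGFA, PFKFB4 and NDRG1 and the lowest for HIF1A.

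Other genes that HIF induces were expressed at widely different levels and did not separate the groups. VEGFA, the angiogenic growth factor, had 8.47, 8.37, 8.19 and 9.75 CPM in GDNF replicates 1 to 4, against 7.97, 13.3, 9.50 and 10.5 CPM in CT replicates 1 to 4. Its log2 fold change was -0.25 (95% interval -0.62 to 0.13, unadjusted p = 0.176, edgeR), and -0.10 without CT replicate 2, its highest library. PFKFB4 likewise had a log2 fold change of -0.21 (95% interval -0.55 to 0.13, unadjusted p = 0.205, edgeR), and -0.07 without CT replicate 2. ANGPTL4, a secreted inhibitor of lipoprotein lipase, had 15, 25, 18 and 14 counts in GDNF replicates 1 to 4, against 7, 19, 15 and 4 counts in CT replicates 1 to 4. Its log2 fold change of 0.58 had a 95% interval of -0.44 to 1.59 (unadjusted p = 0.237, edgeR) and became 0.96 without CT replicate 2 and 0.28 without CT replicate 4. With limma-voom and quality weights it was 1.31, with an unadjusted p of 0.00589, and no gene passed the adjustment there. ANKRD37, a small ankyrin protein, had 1.94, 2.40, 1.61 and 2.94 CPM in GDNF replicates 1 to 4, against 1.90, 1.96, 2.11 and 1.57 CPM in CT replicates 1 to 4. Its log2 fold change was 0.24 (95% interval -0.25 to 0.72), and 0.082 without GDNF replicate 4, its highest library. Of its exon bases, 35.2% lie opposite UFSP2 on the other strand, so that reads of the 2 genes may have been mixed.

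CA9 and ADM, a surface carbonic anhydrase and the peptide adrenomedullin, are often used as indicators of hypoxia and were too low to be tested. CA9 had 4, 2, 6 and 5 counts in GDNF replicates 1 to 4, against 4, 9, 5 and 3 counts in CT replicates 1 to 4, and 38.5% of its exon bases lie opposite ARHGEF39. ADM had 1, 3, 1 and 2 counts in GDNF replicates 1 to 4, against 0, 1, 15 and 3 counts in CT replicates 1 to 4, so a single library, CT replicate 3, held most of them. By contrast NDRG1, a stress-responsive gene needed by Schwann cells, averaged 165 ± 12.4 CPM in GDNF and 183 ± 32.5 CPM in CT libraries. MXI1, a MYC antagonist, averaged 78.9 ± 11.8 CPM in GDNF and 79.5 ± 14.9 CPM in CT libraries. KDM3A, a histone H3 lysine demethylase, averaged 71.7 ± 6.41 CPM in GDNF and 69.2 ± 13.4 CPM in CT libraries.

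The collagen prolyl 4-hydroxylases were the single family whose leader changed between libraries. P4HA1 had 9.64, 8.56, 8.53 and 9.86 CPM in GDNF replicates 1 to 4, against 9.29, 4.45, 8.70 and 9.72 CPM in CT replicates 1 to 4. P4HA2 had 15.5, 15.99, 15.01 and 15.1 CPM in GDNF replicates 1 to 4, against 14.01, 21.6, 16.4 and 14.4 CPM in CT replicates 1 to 4. In CT replicate 2 P4HA1 was lowest and P4HA2 highest. Per kilobase P4HA1 held 60.0 ± 2.44% in GDNF and 55.1 ± 13.3% in CT libraries. P4HA2 led instead with the length of the longest transcript, with 59.7%, its exon union of 8502 bases being longer than its longest transcript of 3349 bases.

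Across the 39 genes, 37 passed the filter on low counts, and 0 of them were called, as was 0% of all 19999 genes tested (edgeR, adjusted p under 0.05). All adjusted p values of the members were 0.9999. Fold changes were below 0 for 23 of the 37, against 52.4% of all genes, and the split was 19 higher and 18 lower without CT replicate 2, and 11 higher and 26 lower with offsets for GC content and length. The median log2 fold change was -0.022 for the members and -0.0098 for all genes tested. Among the 23 genes of glycolysis, transport and lactate, 8 had a fold change above 0 and 15 below, with a median of -0.049. Among the 14 tested hypoxia genes and HIF subunits, 6 lay above 0 and 8 below, with a median of -0.012. For 30 of the 37 members the whole 95% interval lay within 1.5-fold in either direction, and for 34 within 2-fold, against 52.5% and 83.9% of all genes. Among genes of at least 5 CPM the 1.5-fold bound held for 30 of 32 members and for 79.3% of all such genes.

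**Figure D4:**
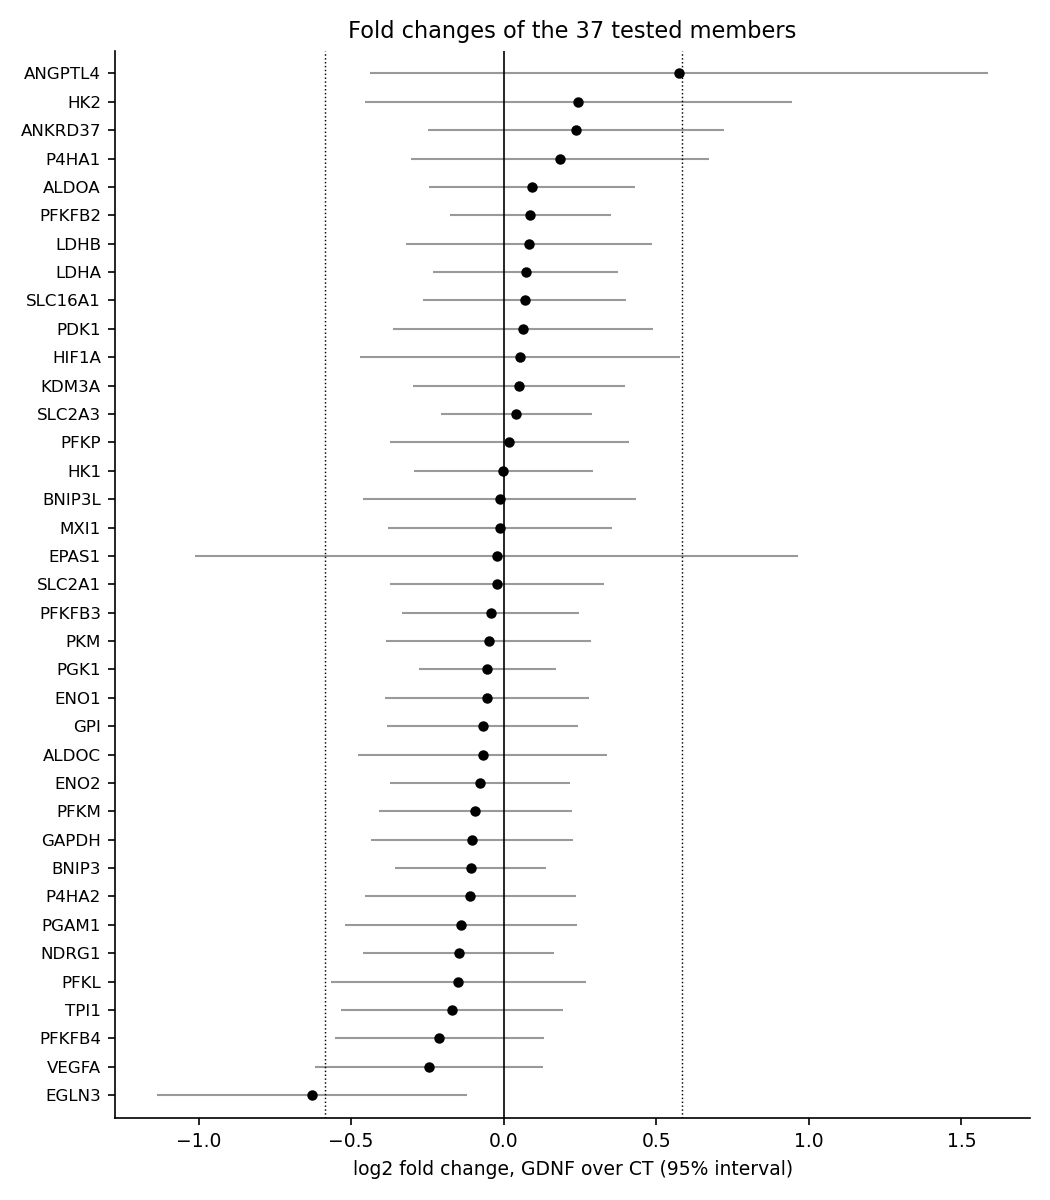
Log2 fold change of GDNF over CT with its 95% interval (edgeR) for the 37 tested genes, ordered by size, with dotted lines at 1.5-fold in either direction. Only the interval of EGLN3 leaves out 0, and the widest intervals belong to ANGPTL4 and EPAS1, which had 4 to 25 counts per library.

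Fold changes of the central enzymes were small beside their intervals. The log2 fold change was -0.08 for ENO2 (95% interval -0.37 to 0.22), -0.10 for GAPDH (-0.43 to 0.23), -0.05 for PKM (-0.39 to 0.29) and -0.05 for PGK1 (-0.28 to 0.17). It was 0.08 for LDHB (95% interval -0.32 to 0.48), 0.07 for LDHA (-0.23 to 0.37), 0.04 for SLC2A3 (-0.21 to 0.29) and -0.02 for SLC2A1 (-0.37 to 0.33). Of these 8, ENO2, GAPDH, PKM, LDHB, LDHA and SLC2A1 had the opposite sign without CT replicate 2, whereas PGK1 and SLC2A3 kept theirs. Without it the log2 fold changes were 0.047 for ENO2, 0.037 for GAPDH, 0.10 for PKM, -0.085 for LDHB, -0.022 for LDHA and 0.10 for SLC2A1. PFKP, at 0.019 with all libraries, was at 0.23 without CT replicate 2 (unadjusted p = 0.0443, edgeR), when 391 of all genes had an unadjusted p under 0.05.

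The members followed their base composition in the library that stood apart. GC content of the longest transcript ranged from 36.4% for HIF1A to 64.1% for PFKL. In CT replicate 2, 20 of the 22 members of at least 50% GC lay above the mean of the other 7 libraries, with a median log2 deviation of 0.43. Of the 15 members below 50% GC, 12 lay below it, with a median of -0.42. Across the 37 members, Spearman's rho of this deviation with GC was 0.815 in CT replicate 2 and 0.485 in GDNF replicate 4. It was -0.688, -0.61 and 0.0934 in GDNF replicates 1 to 3, and -0.625, -0.209 and -0.667 in CT replicates 1, 3 and 4. The sign was thus opposite in GDNF replicates 1 and 2 and in CT replicates 1, 3 and 4. These deviations are from means that include CT replicate 2, so the measure builds in part of such opposite signs. Over 11820 genes it was -0.812, -0.768, -0.00766 and 0.729 in GDNF replicates 1 to 4, against -0.798, 0.896, -0.011 and -0.85 in CT replicates 1 to 4. The deviations of CT replicate 2 were the largest, its genes in the lowest quartile of GC lying at -0.90 (log2) and those in the highest at 0.57. These are descriptions across genes of 1 library, which share its depth and preparation. CT replicate 2 was the highest or lowest library for 29 of the 37 members (78.4%), against 71% of all genes. The median coefficient of variation of the 32 members of at least 5 CPM was 8.87% in GDNF and 19.4% in CT libraries, against 10.02% in GDNF and 20.8% in CT libraries over 11815 genes of that level.

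**Figure D5:**
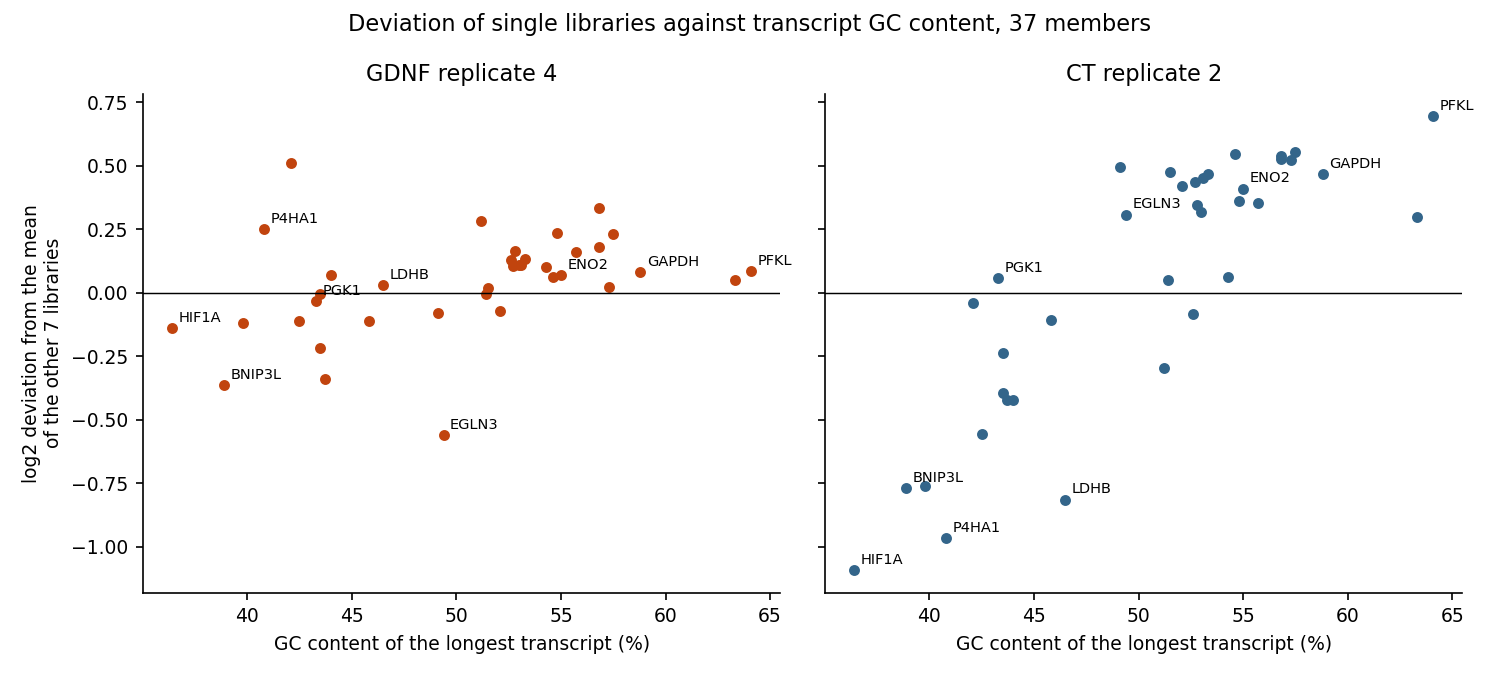
Log2 deviation of GDNF replicate 4 (left) and CT replicate 2 (right) from the mean of the other 7 libraries, against the GC content of the longest transcript in percent, 1 point for each of 37 members. In CT replicate 2 AT-rich HIF1A, P4HA1, BNIP3L and also LDHB lie below 0 and GC-rich PFKL and GAPDH above it.

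Among the genes around the core pathway, 0 passed in any list in either direction. Of the HIF regulators and partners, 16 of 19 were tested, 8 higher and 8 lower, with a median log2 fold change of -0.0052. The partner subunit ARNT2 averaged 603 ± 36.3 CPM in GDNF and 625 ± 93.7 CPM in CT libraries, and ELOB, part of the VHL ligase, 116 ± 13.3 CPM in GDNF and 138 ± 36.8 CPM in CT libraries. Of 33 other hypoxia-induced genes, 32 were tested, 16 higher and 16 lower, with a median of 0.0080. The 2 highest per kilobase, though not in CPM, were WSB1 and TFRC, the transferrin receptor. WSB1 averaged 292 ± 89.6 CPM in GDNF and 247 ± 76.5 CPM in CT libraries. TFRC averaged 137 ± 13.8 CPM in GDNF and 131 ± 39.4 CPM in CT libraries.

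The branches of glucose metabolism held no called gene either. In the pentose phosphate and glycogen list all 15 genes were tested, 6 higher and 9 lower, with a median log2 fold change of -0.015. PGD, which makes NADPH in the pentose phosphate pathway, averaged 225 ± 23.6 CPM in GDNF and 243 ± 42.1 CPM in CT libraries, and PYGB, the brain glycogen phosphorylase, 235 ± 32.0 CPM in GDNF and 256 ± 61.9 CPM in CT libraries. Of the 11 genes of pyruvate entry and its mitochondrial fate, 6 had a fold change above 0 and 5 below, with a median of 0.0075. CS, the citrate synthase, averaged 126 ± 5.58 CPM in GDNF and 121 ± 3.85 CPM in CT libraries, and PDP1, which reactivates pyruvate dehydrogenase, 86.6 ± 6.03 CPM in GDNF and 82.7 ± 14.6 CPM in CT libraries. Of 14 genes of gluconeogenesis and its regulators 12 were tested, 7 higher and 5 lower, with a median of 0.05. G6PC3 averaged 86.4 ± 9.71 CPM in GDNF and 94.6 ± 22.7 CPM in CT libraries, and BPGM, which makes the red cell effector of oxygen release, 36.95 ± 2.78 CPM in GDNF and 36.1 ± 6.84 CPM in CT libraries.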

How the data were processed

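PolyA RNA of 8 samples was prepared with an Illumina TruSeq mRNA kit, per the labels' protocols. The authors deposited raw counts of reads for each gene, whole numbers without normalization. FastQC, cutadapt, STAR, HTSeq and DESeq2 with the GRCh38 build are named in the submitters' processing notes. Versions, strand setting and treatment of reads with several matches were not given in the sources used here. Positions, exon lengths and overlaps came from GENCODE 29, whose coordinates were identical for 98.6% of the genes found in it. The 37 mitochondrial genes were listed with 0 counts. Counts were scaled to CPM with TMM factors and, between genes, divided by the length of the exon union. After filterByExpr (at least 10 counts, 15 in total) genes were tested with the edgeR 4.0.16 quasi-likelihood test in R 4.3.3, group as the only term, Benjamini-Hochberg over 19999 genes at 0.05. Tests were two-sided. Isoenzyme shares were compared by exact permutation tests, adjusted over 17 families. The test was checked on simulated counts without a GC trend in any library, so that check does not cover a library such as CT replicate 2. Promoter windows were those of RefSeq.

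Values in every library are given for the leading and next isoenzyme of each family, the 5 members with the smallest p and 12 preset genes. Of the pathway lists, genes with an unadjusted p under 0.05 and the 2 highest per kilobase are named. Other members are given by mean or range. Some items that this rule names are not reported here. The members and lists were chosen with earlier results of these data known. Alternatives were other scalings, no filter, DESeq2 1.42.0, limma-voom (limma 3.58.1) with quality weights, a replicate block, offsets for GC and length, other lengths, pseudogene counts and each library left out. Exon bases not shared with other genes were added as a length after the data were seen.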

Additional observations from a re-analysis of the deposited data

Results flagged for a closer look

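The values of the named genes and shares were checked in 112 groups of 4 libraries for a library far from the other 3, at a rate at which chance gives about 1 in 20 groups, or 5.6. There were 16 such values, 6 of them in CT replicate 2. In CPM, GDNF replicate 4 was high for PFKFB3 (95.2) and PFKFB4 (35.7), GDNF replicate 1 was high for LDHB (250.5) and low for EPAS1 (0.171), and GDNF replicate 3 was low for BNIP3 (25.8). CT replicate 2 was high for PFKFB3 (107.2 CPM) and PFKFB4 (44.3 CPM) and low for LDHB (138 CPM). Among the shares, GDNF replicate 2 was lowest for GAPDH (99.94% of its family) and PGK1 (99.91%), and GDNF replicate 4 for BNIP3L (84.1%). CT replicate 2 was lowest for LDHB (90.8%), EGLN1 (62.0%) and HIF1A (82.4%), CT replicate 3 was lowest for PGAM1 (98.7%), and CT replicate 4 was highest for ENO2 (74.4%). The part of GC content in the values of CT replicate 2 was not tested.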

How the results depend on the processing

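No gene of the 39 or of the pathway lists was called under any alternative. Over all genes 0 were called throughout, and 112 (replicate block) to 1024 (no filter, more genes tested) had an unadjusted p under 0.05, against 176 in the main fit. Leaving out 1 library gave 118 to 391 such genes, with 391 when CT replicate 2, 317 when CT replicate 1 and 118 when GDNF replicate 1 was the one left out. In their deviations from the group mean, same-numbered libraries correlated at 0.706, -0.637, 0.32 and -0.822, and not all correlated best with their own number. Since the deviations of most libraries also followed GC content, these correlations cannot decide whether the replicate numbers pair the samples. With the replicate block 0 share differences passed, but there too the few libraries limit what an exact test can reach.

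Signs near 0 turned with the treatment. HK1 had log2 fold changes of 0.0024 with DESeq2 size factors and with DESeq2, 0.0074 with totals, 0.011 without filter, 0.023 with limma-voom, 0.0032 with the replicate block and 0.031 with GC and length offsets. With limma-voom, HIF1A was at -0.083, LDHA -0.022, LDHB -0.040, ENO2 0.011, GAPDH 0.0015, SLC2A1 0.0058 and PKM 0.059. With GC and length offsets, HIF1A was at -0.051, LDHA -0.0031, SLC2A1 0.036 and SLC2A3 -0.019. Leaving out 1 library gave -0.16 to 0.18 for HIF1A, -0.061 to 0.11 for HK1, -0.12 to 0.10 for SLC2A1, -0.022 to 0.13 for LDHA, -0.085 to 0.17 for LDHB, -0.14 to 0.047 for ENO2, -0.19 to 0.037 for GAPDH and -0.13 to 0.10 for PKM. Of the 37 members, 19 changed sign without CT replicate 2, 18 with limma-voom and 11 with the offsets. EGLN3 stayed below 0 in every setting, between -0.73 and -0.51 with 1 library left out and at -0.41 with limma-voom. ANGPTL4 stayed above 0, between 0.28 and 0.96 with 1 library left out and at 1.31 with limma-voom.

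P4HA1 held 37.9% of its family with the longest transcript and 34.4% without length scaling, and PFKP 33.8% without length scaling. All other leading isoenzymes led in every setting. For genes under 1 CPM, such as HK2 or EPAS1, depth limits what can be seen.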
